A study of Homo sapiens with 6 samples.

Results

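The collagen family was examined as the 43 genes whose annotated symbol has the form COL, a number, A and a number, apart from 1 such gene that was not analysed here, out of 18404 genes tested. Each gene was read from the probe set with the highest mean signal, and only probe sets annotated to a single gene were used. The samples were 3 of HaCaT cells labelled shTP63, in which a lentiviral short hairpin RNA was directed against TP63, and 3 labelled shControl, which received a control vector, all collected 72 hours after knockdown. HaCaT is a spontaneously immortalised human keratinocyte line, so both groups model keratinocytes through 1 cultured line. TP63 encodes p63, a transcription factor of the basal layer of stratified epithelia, and by its title the series asks about p63 together with ACTL6A in Hippo-YAP signalling. TP63 itself was not analysed here, so every direction rests on the labels. No label says that the replicates were separate cultures, and p-values therefore reflect the spread among these 6 arrays, part of which may be technical.

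Collagens are triple-helical proteins assembled from 3 alpha chains, each chain the product of its own gene. Fibrillar collagens form the cross-striated fibres of dermis, bone and cartilage, while network-forming type IV collagen is the scaffold of the basement membrane on which basal keratinocytes sit. FACIT collagens (fibril-associated collagens with interrupted triple helices) decorate the surface of fibrils, and transmembrane collagens are cell surface proteins with a collagenous ectodomain. In skin, keratinocytes contribute type IV and type VII collagen to the dermal-epidermal junction, whereas most fibrillar collagen is made by dermal fibroblasts.

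Values were log2 intensities, with a median over all probe sets of 7.54 to 7.57 on the shTP63 arrays and 7.44 to 7.47 on the shControl arrays. Over the genes tested alone, the median was 8.16 to 8.17 on the shTP63 arrays and 8.16 to 8.18 on the shControl arrays. Centring, where it is used below, took the median over all probe sets, and so it shifted the differences of the tested genes downward. With 3 arrays per group, differences had a typical (median) SE of 0.053. Background was set at 6.76 (log2), the 95th percentile of the means of 340 olfactory receptor genes. Over all genes 16.4% rose and 25.1% fell, the shares to set beside every count of rises and falls in this paragraph. All 15 measured of 18 listed keratinocyte markers lay above background in both groups, with a summed intensity of 82246 to 83727 in shTP63 and 93195 to 95881 in shControl, and 3 of them rose (20%) and 7 fell (46.7%). KRT15, SFN and TRIM29, which had the smallest p-values among them, fell by 0.91, 0.60 and 0.47 on the log2 scale (limma adjusted p of 2.5e-06 to 3.07e-05). The 3 that rose were CDH3 (0.36), LAMB3 (0.33) and ITGB4 (0.21). The ITGB4 call was lost with the arrays centred on their median (adjusted p = 0.0916). Of 16 fibroblast markers, 11 lay under background in both groups, among them PDGFRA, POSTN, PRRX1, DPT and VIM. LUM, TWIST1, TWIST2, ACTA2 and PDGFRB lay above it in both groups, with group means of 6.91 to 8.44. The summed intensity of all 16 was 1876 to 1973 in shTP63 and 1911 to 1960 in shControl. Of the 16, 2 rose (FAP and FBN1, both under background) and 1 fell (DCN, under background). With the arrays centred on their median, however, 2 rose and 8 fell. Of 7 chondrocyte markers only MATN3 rose (0.78 ± 0.065 SE, with shControl under background). The summed intensity of the 7 was 1716 to 1793 in shTP63 and 1634 to 1762 in shControl. SOX9 (9.57 in shTP63 and 9.58 in shControl), SNORC and COMP lay above background in both groups and did not pass. MATN1, ACAN and HAPLN1 lay under it in both groups. Of 11 endothelial and immune markers measured, 7 lay under background in both groups, PECAM1 and PTPRC among them. CDH5 (9.57 in shTP63 and 9.50 in shControl, not passed), CD68, CD14 and CLDN5 lay above it in both groups. The sums over the 11 were 2428 to 2584 in shTP63 and 1928 to 2048 in shControl. In that list CD68 (0.75 ± 0.056 SE), CD14 (0.70 ± 0.064 SE) and CLDN5 rose, whereas VWF, under background in both groups, fell by 0.18. The VWF call did not hold without shControl replicate 3 (adjusted p = 0.0558). The CLDN5 call was lost with the replicate number as a block (0.0609), under quantile normalisation over all probe sets (0.242) or centring (0.309), and without shTP63 replicate 2 (0.103) or shControl replicate 1 (0.0881), 2 (0.105) or 3 (0.0711). The part of these markers in the collagen results was not tested. All samples are of 1 cultured line. In such bulk samples a change in the share of cells in a given state and a change of RNA per cell cannot be told apart.

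Collagen genes that changed were all higher in shTP63. In limma's moderated test with Benjamini-Hochberg adjustment over all genes, 13 of the 43 members rose and none fell at an adjusted p of 0.05, against a background of 16.4% of all genes that rose and 25.1% that fell (41.5% in either direction). The members' share of calls in either direction, 30.2%, was thus below that of all genes, whereas their share of rises was above it. At an unadjusted p of 0.05, 16 members were higher and 0 lower, against 19.7% and 28.7% of all genes. The arrays of the groups did not overlap in 18 members, each time with shTP63 above, against 51.4% of all genes in either direction (20.9% with shTP63 above and 30.4% with shTP63 below). The summed intensity of the members was 11927 to 12473 in shTP63, against 9521 to 9875 in shControl. Bright genes weigh most in such a sum. At their mean log2 values, COL12A1 had an intensity of 2547 in shTP63 and 1757 in shControl, and COL4A2 of 1430 and 642. The median difference over the members was 0.08, with a range from -0.04 to 1.16, against -0.01 over all genes. A change of at least 2-fold was reached by COL4A2 alone, against 0.679% of all genes. The calls held most of the basement membrane class (6 of 9 members), and included 4 of 11 fibrillar chains, 2 of 10 FACIT chains and 1 of 3 short chain network collagens, but none of 3 transmembrane, 5 beaded filament and 2 other chains. With every array centred on its median the difference of all genes moved to -0.12 and that of the members to -0.03, and 9 members rose and 0 fell.

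**Figure D1:**
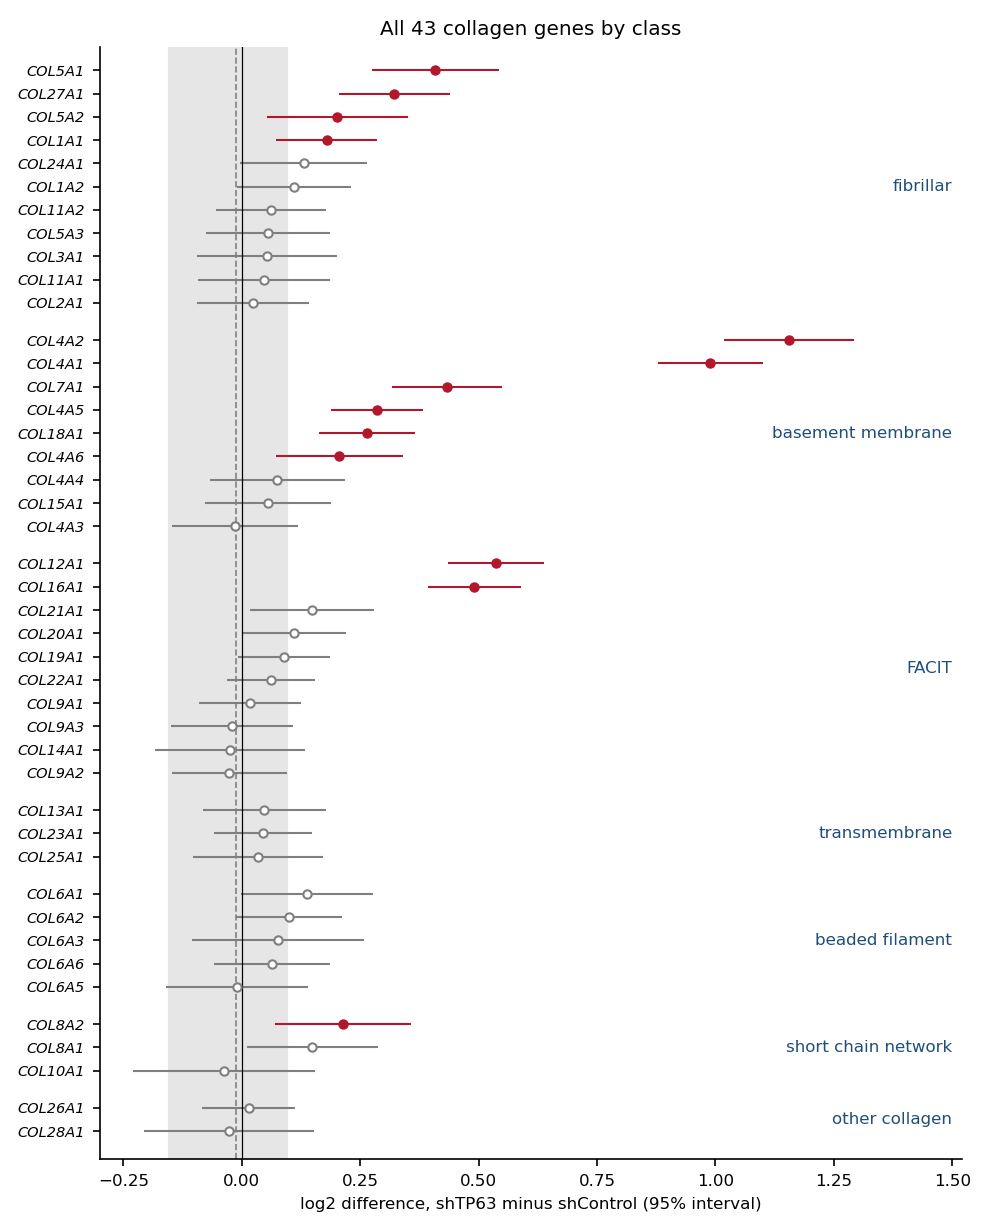
Log2 difference, shTP63 minus shControl, of each of the 43 collagen genes (horizontal axis) by class, with its 95% confidence interval from limma; filled red points passed the test and open grey points did not, and the grey band spans the quartiles of all genes (-0.15 to 0.09) around their median (dashed). COL4A2 (1.16) and COL4A1 (0.99) lie apart from the other members, of which the next is COL12A1 (0.54).

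The collagens of the basement membrane zone held the largest differences of the family. COL4A1 and COL4A2 encode the chains of the type IV trimer found in nearly all basement membranes. COL4A2 read 10.41, 10.48 and 10.56 on the shTP63 arrays, against 9.23, 9.34 and 9.41 on the shControl arrays (log2 intensity). COL4A1 read 9.17, 9.27 and 9.30 in shTP63, against 8.23, 8.27 and 8.28 in shControl. In both genes every shTP63 array lay well above every shControl array, and the gap was many times the spread within a group. COL4A2 rose by 1.16 ± 0.060 (SE), or 2.23-fold (adjusted p = 2.68e-06), and COL4A1 by 0.99 ± 0.049, or 1.98-fold (adjusted p = 2.07e-06). Their differences exceeded those of 99.7% and 99.5% of all genes.

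The genes of each type IV pair lie head to head, so that 1 stretch of DNA upstream of both start sites is shared, and a window of each pair is shown because 1 pair rose strongly, 1 weakly and 1 did not pass. The sequences are RefSeq's for GRCh38.p14, from 250 bases before to 50 after the start site, read 5′ to 3′ on the strand of the named gene, and capitals mark the GC box letters GGGCGG and the CCAAT box letters CCAAT, or their reverse complements CCGCCC and ATTGG.
COL4A2, chr13:110307034-110307333, plus strand: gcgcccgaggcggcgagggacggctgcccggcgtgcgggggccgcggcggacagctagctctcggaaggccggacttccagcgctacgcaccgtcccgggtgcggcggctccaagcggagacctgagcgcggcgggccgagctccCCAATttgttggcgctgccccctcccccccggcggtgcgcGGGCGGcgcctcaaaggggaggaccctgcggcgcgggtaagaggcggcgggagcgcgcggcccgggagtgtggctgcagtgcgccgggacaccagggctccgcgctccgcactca
COL4A5, chrX:108439588-108439887, plus strand: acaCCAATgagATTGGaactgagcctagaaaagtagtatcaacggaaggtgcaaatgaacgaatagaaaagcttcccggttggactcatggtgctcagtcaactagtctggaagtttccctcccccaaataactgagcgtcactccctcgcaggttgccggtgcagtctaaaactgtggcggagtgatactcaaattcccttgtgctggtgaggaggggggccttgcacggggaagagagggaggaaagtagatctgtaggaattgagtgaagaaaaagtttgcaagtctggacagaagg
COL4A3, chr2:227164374-227164673, plus strand: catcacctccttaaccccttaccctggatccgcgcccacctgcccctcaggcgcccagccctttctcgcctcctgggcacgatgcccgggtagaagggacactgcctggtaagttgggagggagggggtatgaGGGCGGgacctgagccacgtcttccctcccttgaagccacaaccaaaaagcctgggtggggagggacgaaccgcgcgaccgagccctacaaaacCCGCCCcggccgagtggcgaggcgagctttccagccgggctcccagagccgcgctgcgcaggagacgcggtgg
The annotated start sites of COL4A1 and COL4A2 lie 127 bases apart, so that the COL4A2 window holds both. Those of COL4A5 and COL4A6 lie 380 bases apart and those of COL4A3 and COL4A4 419 bases apart. The COL4A2 window has a GC content of 77.7%, with 1 CCAAT box and 1 GC box between the start sites. The COL4A5 window has a GC content of 49.3% and a pair of CCAAT boxes on opposite strands, and the COL4A3 window one of 67.7% with a GC box on each strand. A match to such letters is a description of the window and does not show that a factor binds there.

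COL4A5 and COL4A6 encode chains of the type IV trimer known from the basement membranes of skin and smooth muscle. COL4A5 read 7.55, 7.56 and 7.63 in shTP63, against 7.29, 7.31 and 7.28 in shControl, with no overlap. It rose by 0.29 ± 0.043 (SE), 1.22-fold (adjusted p = 0.000673). COL4A6 read 7.09, 6.93 and 7.02 in shTP63, against 6.89, 6.80 and 6.72 in shControl, so that the lowest shTP63 array was just above the highest shControl array. It rose by 0.21 ± 0.059 (adjusted p = 0.0208). This call was lost without shTP63 replicate 1 (adjusted p = 0.0689) or 3 (0.0509), without shControl replicate 2 (0.0578) or 3 (0.0807), and with the arrays centred on their median (difference 0.10, adjusted p = 0.191) or quantile-normalised again (0.10, adjusted p = 0.216). COL4A3 and COL4A4, whose chains form the trimer of glomerular and alveolar basement membranes, lay under background in both groups and did not pass, with differences of -0.01 (95% interval -0.15 to 0.12) and 0.08 (-0.07 to 0.22).

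Of the other members of this class, COL7A1 encodes the anchoring fibrils that tie the epidermal basement membrane to the dermis. It read 8.64, 8.70 and 8.72 in shTP63, against 8.33, 8.23 and 8.19 in shControl, and the groups were clearly separate. It rose by 0.43 ± 0.051 (SE), or 1.35-fold (adjusted p = 0.000172). COL18A1, the multiplexin whose carboxyl-terminal fragment is endostatin, read 8.90, 8.93 and 8.99 in shTP63, against 8.67, 8.65 and 8.71 in shControl. It rose by 0.26 ± 0.045 (adjusted p = 0.00125), again without overlap. COL18A1 overlaps SLC19A1 in the RefSeq annotation, a folate carrier gene with a difference of 0.52 at its own probe set, and whether transcripts of the one add to the other's signal was not tested. COL15A1, the other multiplexin, did not pass (0.06, 95% interval -0.08 to 0.19).

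**Figure D2:**
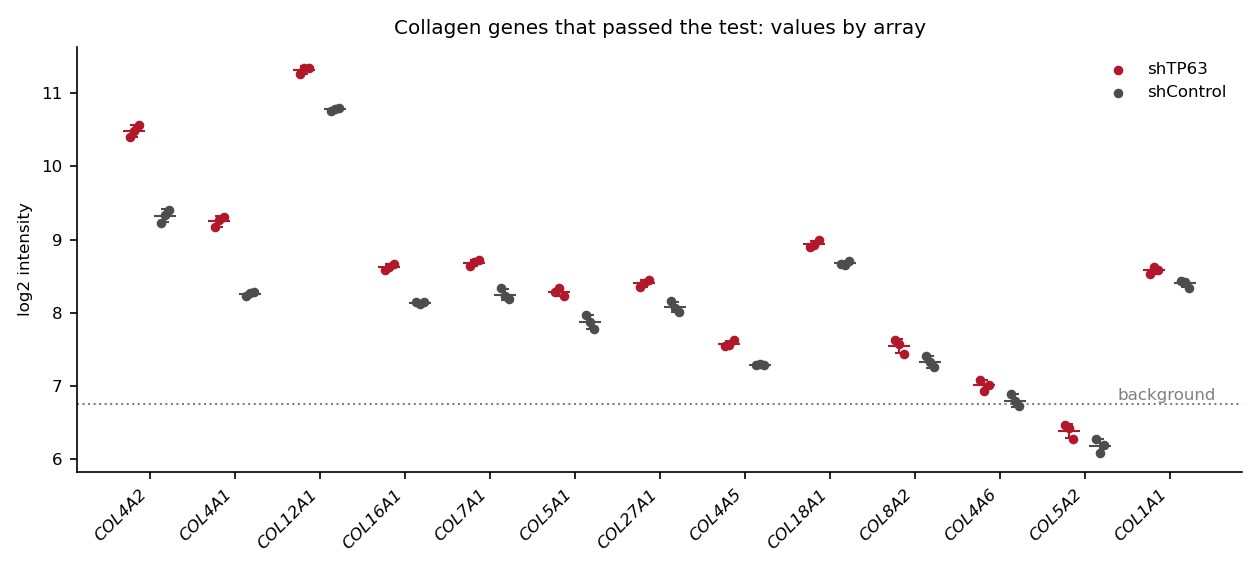
Log2 intensity (vertical axis) of the 13 collagen genes that rose, with 3 shTP63 arrays in red to the left of 3 shControl arrays in grey for each gene, ordered by difference; points are arrays, horizontal ticks the group means and bars the SD, and the dotted line is background (6.76). The groups are separate in every gene shown except COL5A2, which lies under background.

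Among the FACIT chains, COL12A1 and COL16A1 rose and the other 8 did not pass. COL12A1 encodes a fibril-associated chain that bridges collagen fibrils and other matrix proteins. It read 11.26, 11.35 and 11.34 in shTP63, against 10.76, 10.78 and 10.80 in shControl. The groups were far apart relative to their spread (0.050 and 0.020 SD, n = 3 each), and COL12A1 rose by 0.54 ± 0.045 (SE), 1.45-fold (adjusted p = 2.66e-05). COL16A1, a minor chain of the dermal-epidermal junction and of cartilage fibrils, read 8.58, 8.63 and 8.67 in shTP63, against 8.14, 8.12 and 8.15 in shControl. It rose by 0.49 ± 0.044, 1.41-fold (adjusted p = 3.75e-05), with no overlap. The COL12A1 window, shown because this gene rose the most outside type IV, has a GC content of 63.3% and a pair of CCGCCC runs, the GC box in reverse complement.
COL12A1, chr6:75206004-75206303, minus strand: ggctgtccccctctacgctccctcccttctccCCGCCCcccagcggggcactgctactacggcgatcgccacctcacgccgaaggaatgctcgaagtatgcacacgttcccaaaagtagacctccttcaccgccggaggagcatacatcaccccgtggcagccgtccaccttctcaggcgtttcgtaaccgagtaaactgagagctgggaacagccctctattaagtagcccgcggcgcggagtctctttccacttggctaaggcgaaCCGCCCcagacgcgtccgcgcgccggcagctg
COL9A1, COL9A2 and COL9A3, which encode the type IX collagen of cartilage, differed by 0.02, -0.03 and -0.02, with 95% intervals that lay between -0.15 and 0.13. COL19A1, COL20A1, COL21A1 and COL22A1 had shTP63 arrays that all lay above the shControl arrays, with differences of 0.06 to 0.15 that did not pass (adjusted p of 0.0674 to 0.280). COL21A1 was closest, at 0.15 ± 0.057 (SE) with both groups under background, and passed without shTP63 replicate 1 (adjusted p = 0.0292) and with array weights (0.0365). COL20A1 passed with the dimmest 40% of genes left out (adjusted p = 0.0458). COL14A1, a chain of interstitial fibrils, differed by -0.02 under background.

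Among the fibrillar chains, the quantitatively minor COL5A1 and COL27A1 changed the most. COL5A1 encodes a chain of type V collagen, which starts and limits the growth of type I fibrils. It read 8.28, 8.34 and 8.22 in shTP63, against 7.97, 7.87 and 7.77 in shControl, and rose by 0.41 ± 0.059 (SE), 1.33-fold (adjusted p = 0.000534). COL27A1, a fibrillar chain of cartilage, read 8.35, 8.41 and 8.45 in shTP63, against 8.16, 8.07 and 8.02 in shControl. It rose by 0.32 ± 0.052, 1.25-fold (adjusted p = 0.000969), and the groups of both genes were separate. MIR455, which lies within COL27A1, differed by 0.05 at its own probe set and did not pass.

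Differences of the major fibrillar chains were smaller. COL1A1, the main chain of type I collagen, read 8.53, 8.62 and 8.59 in shTP63, against 8.44, 8.42 and 8.35 in shControl, and rose by 0.18 ± 0.047 (SE), 1.13-fold (adjusted p = 0.0134). The test was no longer passed without shControl replicate 3 (adjusted p = 0.0603) or with the arrays centred on their median (difference 0.07, adjusted p = 0.222). Its partner COL1A2 differed by 0.11 ± 0.053 and did not pass (adjusted p = 0.134), except without shTP63 replicate 3 (0.0475). COL5A2, the partner of COL5A1, lay under background and its groups overlapped, with 6.46, 6.43 and 6.28 in shTP63 against 6.28, 6.09 and 6.19 in shControl. It rose by 0.20 ± 0.066 (adjusted p = 0.0353), a call lost without shTP63 replicate 1 (0.111) or 2 (0.104), without shControl replicate 2 (0.126) or 3 (0.0770), and under centring or renewed quantile normalisation (differences of 0.09, adjusted p of 0.235 and 0.247). COL3A1, a chain of reticular fibres and vessel walls, COL5A3, COL2A1, COL11A1, COL11A2 and COL24A1 did not pass, with differences of 0.02 to 0.13 whose 95% intervals reached at most 0.27. COL24A1, under background, passed without shControl replicate 1 (adjusted p = 0.0459). COL11A2 was the only member with a second probe set, which differed by 0.16 and did not pass either (adjusted p = 0.253 over all probe sets of single genes).

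The transmembrane chains COL13A1, COL23A1 and COL25A1 showed no detectable change. COL13A1 read 7.57, 7.66 and 7.72 in shTP63, against 7.69, 7.56 and 7.55 in shControl, and COL23A1 read 8.30, 8.32 and 8.32 in shTP63, against 8.34, 8.24 and 8.23 in shControl. The groups overlapped in both genes, and their differences of 0.05 had 95% intervals of -0.08 to 0.18 and of -0.06 to 0.15. COL25A1 lay under background, with a difference of 0.03 (-0.10 to 0.17).

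Type VI collagen forms beaded filaments near basement membranes. COL6A1 differed by 0.14 ± 0.061 (SE, adjusted p = 0.109) and COL6A2 by 0.10 ± 0.049 (adjusted p = 0.147), and neither passed, although both passed after cyclic loess (adjusted p of 0.0289 and 0.0394) and after quantile normalisation over the probe sets of single genes (0.0434 and 0.0463), and COL6A1 also with the dimmest 40% left out (0.0490). COL6A3, COL6A5 and COL6A6 lay under background with differences of -0.01 to 0.08. Among the short chain network collagens, COL8A2, known from the basement membrane of the corneal endothelium, read 7.63, 7.57 and 7.44 in shTP63, against 7.42, 7.33 and 7.26 in shControl, with a narrow gap between the groups. It rose by 0.21 ± 0.063 (adjusted p = 0.0231), a call lost without shTP63 replicate 1 (0.0765) or 2 (0.0680), without shControl replicate 2 (0.0637) or 3 (0.0857), and under centring (0.173) or renewed quantile normalisation (0.184). COL8A1 differed by 0.15 ± 0.061 under background and passed only without shControl replicate 3 (adjusted p = 0.0439). COL10A1, the collagen of hypertrophic cartilage, differed by -0.04 and also lay under background. COL26A1 (0.01) and COL28A1 (-0.03) did not pass.

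Both groups lay under background in 15 of the 43 members, of which 1, COL5A2, rose (6.67%), against 6.78% of all genes that lay under background. Of the 28 members above it in at least 1 group 12 rose and 0 fell, against 19.9% and 32.6% of all such genes. Over the 43 members the difference and the mean signal had a Spearman correlation of 0.40 and a Pearson correlation of 0.57, a description across genes that share the same 6 arrays and differ in their probes. When all genes were split by mean signal into 5 bins of equal size, no member fell in any bin. From the dimmest bin to the brightest, the members that rose were 0 of 9, 4 of 14, 6 of 16, 2 of 3 and 1 of 1. Over all genes, 234 rose and 163 fell of 3681 in the dimmest bin, 505 and 319 of 3681 in the second, 662 and 936 of 3680 in the middle one, 682 and 1583 of 3681 in the fourth and 932 and 1618 of 3681 in the brightest.

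**Figure D3:**
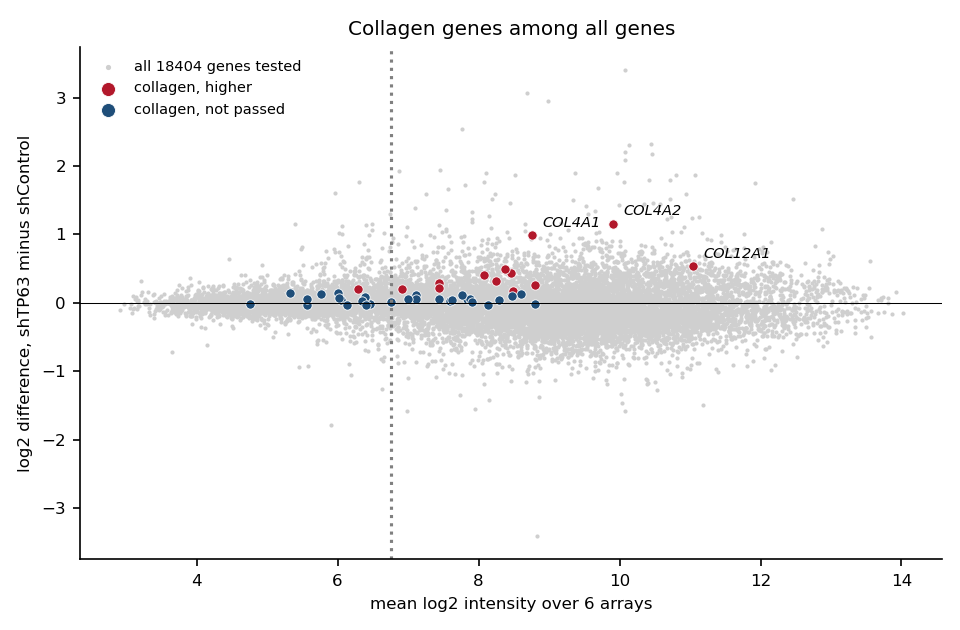
Mean log2 intensity over the 6 arrays (horizontal axis) against the log2 difference, shTP63 minus shControl (vertical axis), for all 18404 genes tested (grey) and for the collagen genes that rose (red) or did not pass (blue); the dotted line is background (6.76). Members left of the line lie between -0.04 and 0.20, whereas COL4A2 and COL4A1 lie at the upper edge of the cloud.

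Whether chains that assemble together changed by the same amount was examined in 11 chain pairs, from the log2 ratio of the chains on each array. The ratio did not overlap between the groups in 4 pairs. Of all genes, 51.4% did not overlap in their own signal, and the share over other pairs of genes was not computed, so nothing is read from this count. The log2 ratio of COL4A1 over COL4A2, shTP63 minus shControl, differed by -0.17, with every shTP63 array below every shControl array. That of COL4A1 over COL4A5 differed by 0.70 and that of COL4A2 over COL4A6 by 0.95, chains that belong to different type IV trimers, and that of COL5A1 over COL5A2 by 0.21, each with shTP63 above. COL5A2 lay under background in both groups, as did COL4A3, COL4A4, COL6A3 and COL8A1 in other pairs, and ratios with such chains do not measure whether the chains changed unequally. In each of the 4 pairs whose ratio did not overlap, the two-sided exact permutation test gave p = 0.10, the smallest that 3 arrays against 3 allow (adjusted p = 0.275 over the 11 pairs). In the other 7 pairs the ratios overlapped, with differences from -0.09 for COL4A3 over COL4A4 to 0.08 for COL4A5 over COL4A6 and exact p of 0.2 to 0.9. Among them, COL1A1 over COL1A2 differed by 0.07, COL6A1 over COL6A2 by 0.04 and COL9A2 over COL9A3 by -0.01. Over the 16 alternatives run for it the COL4A1 over COL4A2 ratio ranged from -0.23 to -0.14, and over 15 the COL4A1 over COL4A5 ratio from 0.68 to 0.80, since COL4A5 is not tested with the dimmest 40% of genes left out.

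**Figure D4:**
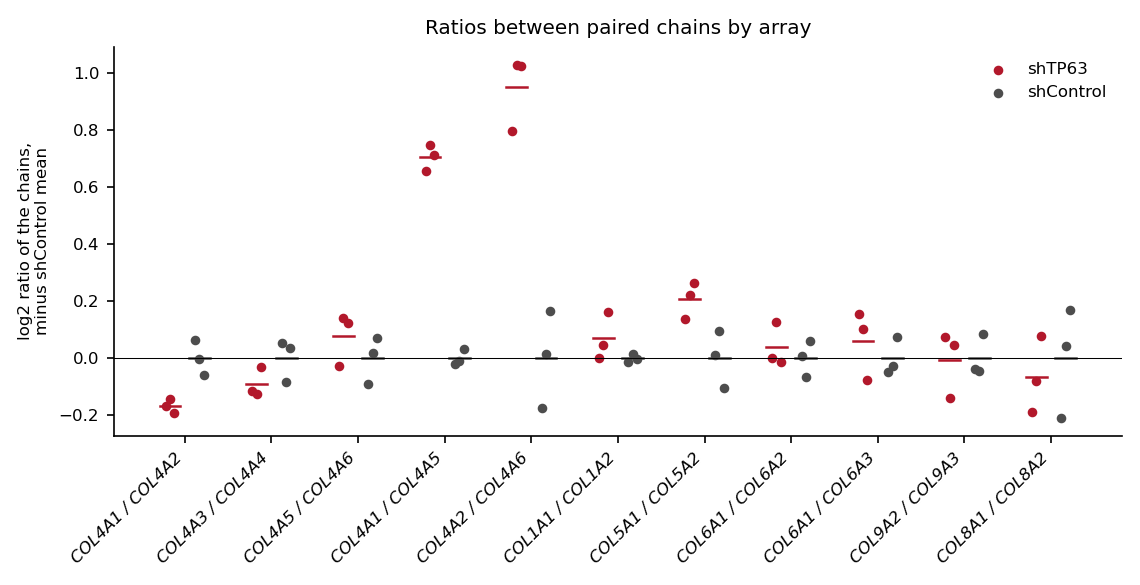
Log2 ratio of the chains of each pair (vertical axis), minus its mean on the shControl arrays, with 3 shTP63 arrays in red to the left of 3 shControl arrays in grey; short lines are group means. The ratios of COL4A1 over COL4A5 and COL4A2 over COL4A6 stand apart from shControl by 0.70 and 0.95, and those of most other pairs overlap. COL4A6 was near background.

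Start site windows were matched for 31 of the 43 members in RefSeq's table, 8 of them with several windows, of which any match and the highest GC content were counted, as was done for all 27303 genes of the table. The GC box GGGCGG, on either strand, occurred in 10 of the 11 matched members that rose and in 11 of the 20 that did not pass, against 48.3% of all genes. The median GC content was 73.7% in the members that rose, 66.7% in those that did not pass and 59.7% over all genes, and whether the box follows base composition was not tested. The CCAAT box was present in 4 of 11 and 7 of 20 members and in 39.7% of all genes, and the TATA box TATAAA in 2 of 11 and 4 of 20, against 14.0%. The members that rose with a CCAAT box were COL4A1, COL4A2, COL4A5 and COL4A6. The COL4A1 and COL4A2 windows share 226 bases that hold the same GC box and CCAAT box, counted for both genes. Those of COL4A5 and COL4A6 share 121 bases with the same CCAAT boxes, so these counts are not of separate sites. The AP-1 letters TGANTCA occurred in COL10A1 alone of the matched members (9.37% of all genes), and the p53-family half-site in none of them (8.06% of all genes). That these letters are not in a window of this length says nothing of p63 binding elsewhere.

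Genes that modify, fold, cross-link, bind and degrade collagen were counted in 7 lists taken from general knowledge, with earlier results of these data known. The shares to set beside each count are those of all genes, of which 16.4% rose and 25.1% fell. Of 14 measured collagen hydroxylation and glycosylation enzymes, 11 were higher and 0 lower (11 and 0 at an unadjusted p of 0.05). Their median difference was 0.33, against -0.01 for all genes. The prolyl 4-hydroxylase subunits P4HA1, P4HA2 and P4HB, whose product stabilises the triple helix, were among those that rose. P4HA3, a further subunit under background in both groups, did not pass (0.12, adjusted p = 0.167). P4HA1 read 10.89, 10.97 and 10.89 in shTP63, against 10.27, 10.36 and 10.31 in shControl, and rose by 0.61 ± 0.047 (SE, adjusted p = 1.81e-05). P4HA2 rose by 0.61 ± 0.047 and PLOD2, a lysyl hydroxylase of collagen telopeptides, by 0.65 ± 0.059, with adjusted p of 1.88e-05 and 4.25e-05. Under every alternative 11 or 12 of the list rose and 0 fell.

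Of 13 genes listed under collagen chaperones and secretion, 8 rose and 1, TANGO2, fell, with a median of 0.21. No value here shows that TANGO2 acts on collagen, and its fall is not read as one of a collagen secretion gene. TMEM38B, a cation channel of the endoplasmic reticulum mutated in a recessive osteogenesis imperfecta, rose by 1.01 ± 0.059 (SE, adjusted p = 4.67e-06), SERPINH1, the collagen chaperone HSP47, by 0.41 ± 0.045 (0.000115) and MIA3, which loads procollagen into transport carriers, by 0.39 ± 0.050 (0.000259). With the arrays centred on their median 4 of this list rose and 3 fell. Of 7 collagen cross-linking enzymes 6 rose and 0 fell, with a median of 0.48. LOXL2, an oxidase of collagen lysines, read 11.53, 11.52 and 11.61 in shTP63, against 9.32, 9.36 and 9.44 in shControl, and rose by 2.18 ± 0.050, 4.53-fold (adjusted p = 3.8e-08). PXDN, the peroxidase that forms the sulfilimine cross-links of type IV collagen, read 10.16, 10.23 and 10.25 in shTP63, against 9.39, 9.41 and 9.43 in shControl, with the groups far apart. PXDN rose by 0.80 ± 0.044 (adjusted p = 3.43e-06) and the transglutaminase TGM2 by 0.92 ± 0.074 (2.29e-05). Centring left 4 of this list, and leaving out a single array 4 to 6.

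Of 11 procollagen processing genes, 3 rose (27.3%) and 1 fell (9.09%), from which nothing is read about the list, with a median of 0.06, and 6 lay under background in both groups. FURIN, a proprotein convertase, rose by 0.66 ± 0.052 (SE, adjusted p = 2.06e-05), PCOLCE2 by 0.25 ± 0.046 under background (0.00186) and BMP1, the procollagen C-proteinase, by 0.22 ± 0.049 (0.00661), a call lost under centring (difference 0.11, adjusted p = 0.101). MEP1A, a meprin subunit, fell by 0.23 and lay under background. Of 11 measured collagen receptors 5 rose and 0 fell, with 6 higher and 0 lower at an unadjusted p of 0.05. ITGB1 and ITGA2, the subunits of the main collagen-binding integrin of keratinocytes, rose by 0.57 ± 0.044 and 0.31 ± 0.041, and MRC2, an endocytic collagen receptor, by 0.60 ± 0.074 (adjusted p of 1.87e-05 to 0.000311). DDR1, ITGB1, ITGA2, MRC2 and CD44 were the members that rose, whereas with centring 4 rose and 2 fell.

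Collagen-degrading proteases were higher as well. Of 10, 9 rose and 0 fell (9 and 0 at an unadjusted p of 0.05), with a median of 0.45, and 8 or 9 rose under every alternative. MMP2, a gelatinase that also cleaves type IV collagen, read 12.30, 12.22 and 12.27 in shTP63, against 11.24, 11.26 and 11.28 in shControl, and rose by 1.00 ± 0.042 (SE, adjusted p = 8.85e-07). The collagenases MMP13 and MMP1 rose by 1.26 ± 0.074 and 0.79 ± 0.051 (adjusted p of 4.82e-06 and 7.38e-06). FAP, which stands in this list and among the fibroblast markers, was 1 of the 9. Of 8 collagen-binding small proteoglycans, none rose and only DCN fell, with 5 under background in both groups. DCN fell by 0.26 (SE 0.084, adjusted p = 0.0371), a call lost with shTP63 replicate 1 (0.122) or 2 (0.0628) left out likewise for shControl replicate 1 (0.111) or 3 (0.0789), and with the replicate number as a block (0.0750).

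**Figure D5:**
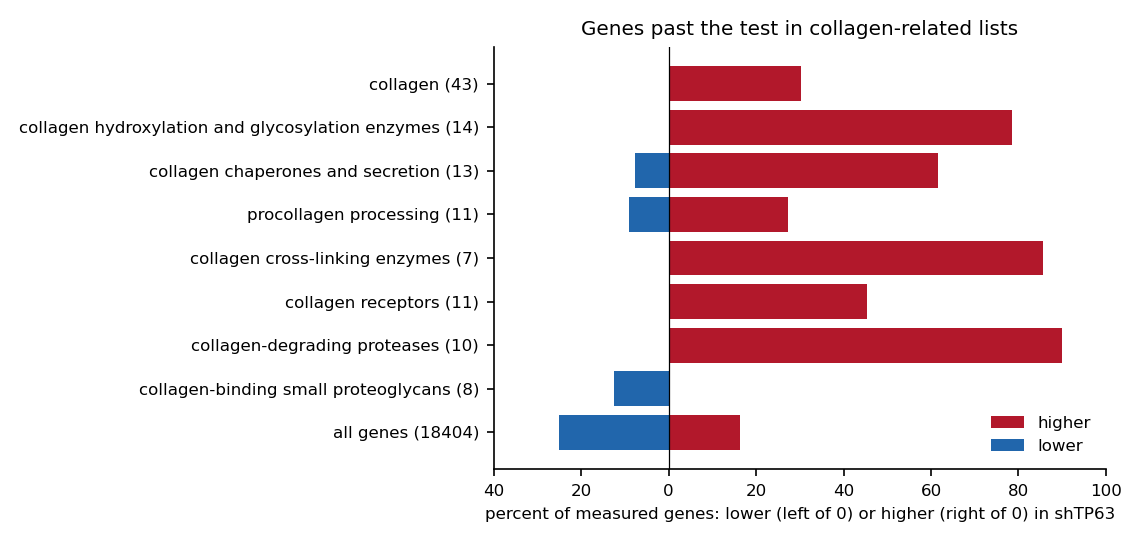
Share of the measured genes of each list (number in brackets) that passed the test, in percent, with genes higher in shTP63 to the right of 0 (red) and lower ones to the left (blue). Of the collagen genes 30.2% were higher and 0 lower, and of all genes 16.4% were higher and 25.1% lower.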

How the data were processed

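Gene expression was measured on 6 arrays, grouped by the sample titles. The authors made the deposited intensities with RMA (background correction, normalisation between arrays and probe summary) in R 2.15.1, per the submitters' processing notes. These values were linear, and log2 was taken of them here. The build behind the array is not given in the sources used here. The labels describe priming with oligo-dT, whereas the annotation is of a whole-transcript array, so the labelling, and with it which part of a long transcript gave signal, is uncertain. Of 32321 probe sets, the platform annotation gave 19158 a single gene, 1388 several (not used) and left 11775 unlisted. For each of 18404 genes the probe set with the highest mean was used. limma 3.58.1 (R 4.3.3) compared shTP63 with shControl by a two-sided moderated test without covariates. P-values were adjusted by Benjamini-Hochberg across the 18404 genes, and calls were made at 0.05. Only the moderated test with its adjustment was tried on simulated data, with independent noise and few changed genes. That setting differs from these data, in which many genes changed, and it does not cover the other steps. Precision is limited by having 3 arrays in each group. Every member is named, and from each other list up to 3 genes with the smallest adjusted p, with some further genes of these lists. The members, classes and lists were chosen with earlier results of these data known. The alternatives left out each array in turn, added the replicate number as a block, normalised or centred the arrays again, dropped dim genes, averaged probe sets, weighted arrays, used a trended and robust prior, added a pseudocount of 16, or set the threshold at 0.01.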

Additional observations from a re-analysis of the deposited data

How the results depend on the processing

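The count of collagen genes that rose was 13 and ranged from 9 (arrays centred on their median, or a threshold of 0.01) to 15 (cyclic loess, or quantile normalisation over the probe sets of single genes), and 0 fell under every alternative run. Leaving out single arrays gave 10 to 14 collagen genes that rose, and 6483 to 7290 of all genes past the threshold, against 7634 with all arrays. With the replicate number as a block, 13 collagen genes rose and 7165 of all genes passed. The deviations of same-numbered arrays from their group means correlated at -0.15, -0.04 and 0.13, and 1 of 3 shTP63 arrays correlated best with its own number. Deviations from a mean of 3 arrays are tied to each other, so these correlations cannot decide whether the numbers pair the samples. The block therefore serves as a check only. Under centring, falls made up 81.7% of all calls, against 60.5% on the deposited scale and 49.7% after cyclic loess. Of the 13 members called, 9 kept their call in every setting in which they were tested at the threshold of 0.05, 16 settings each or 15 for COL4A5, which the filter on dim genes leaves out (COL4A1, COL4A2, COL4A5, COL5A1, COL7A1, COL12A1, COL16A1, COL18A1 and COL27A1), 4 lost it in at least 1 setting, and 7 members not called gained one in at least 1. No called member changed sign. With the dimmest 40% of genes left out, 20 members remained to be tested, of which 11 rose. Weak signal limits what can be seen in the 15 members under background.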
